A study of Mus musculus with 6 samples.

Results

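The transcripts of the mitochondrial genome were compared between RAW264.7 macrophages treated with C2S and PM_control macrophages. All genes whose symbol starts with mt- were taken, which gave 37 of the 52636 genes in the files: 13 protein-coding genes, 2 ribosomal RNA genes and 22 transfer RNA genes. RAW264.7 is a macrophage line from a BALB/c mouse, and every library came from this single line, kept in high-glucose DMEM with fetal bovine serum and penicillin-streptomycin. RNA was sequenced from 3 libraries of cells that received C2S, which the labels call an extract, at 150 µg/ml for 24 h. It was also sequenced from 3 PM_control libraries, in which the dose was 0 µg/ml. Neither name is spelled out in the labels, and the question addressed is which transcripts differ with the extract. Nothing in the labels says whether replicates came from different cultures. Each p-value therefore reflects only how much these samples vary, and that variation may be technical.

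The mammalian mitochondrial genome is a small circle that is transcribed from both strands into long precursors. The heavy-strand transcript carries both ribosomal RNAs, most transfer RNAs and all messenger RNAs but one, and the light-strand transcript carries mt-Nd6 and the remaining transfer RNAs. The precursors are cut at the transfer RNAs that lie between the other genes, so genes of one precursor reach different levels through cutting, tail addition and decay. The proteins are subunits of respiratory complexes I, III, IV and V, which also hold subunits from nuclear genes, and the 2 ribosomal RNAs form the core of the mitochondrial ribosome.

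The sequences in this section bear on which genes could be counted and which reads are shared. They are from the GENCODE M21 transcripts (GRCm38, the coordinates of mm10), and positions in a transcript count from 1 at its 5′ end. A run of 7 annotated nuclear genes on chromosome 1, chr1:24611535-24616197 on the minus strand, repeats the mitochondrial genome from the 3′ part of mt-Co1 to mt-Nd4. In the nuclear copy of mt-Nd3, Gm28438, the only difference over 345 aligned bases was T3C, in capitals in the first pair (chrM:9459-9499 and chr1:24613079-24613119). In Gm29216, the copy of the end of mt-Co1, the only difference over 483 aligned bases was A1066T. Gm13340 on chromosome 2 matched mt-Co1 with 37 mismatches over 1545 bases, one of them T1072C. The 3 windows of that second set were chrM:6390-6430, chr1:24616148-24616188 and chr2:22588545-22588585. The third pair (chrM:8227-8266 and chr1:24614312-24614351) is shown because Gm10925 had no difference from mt-Atp6 over 678 bases, so it holds no capitals.
mt-Nd3: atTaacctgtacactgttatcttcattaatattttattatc
Gm28438: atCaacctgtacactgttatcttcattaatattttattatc
mt-Co1: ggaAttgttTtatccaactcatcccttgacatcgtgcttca
Gm29216: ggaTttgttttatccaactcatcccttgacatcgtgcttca
Gm13340: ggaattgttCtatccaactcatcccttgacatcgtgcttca
mt-Atp6: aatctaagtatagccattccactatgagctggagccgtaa
Gm10925: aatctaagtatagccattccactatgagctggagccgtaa

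The only pair of protein-coding members on opposite strands that share bases is mt-Nd5 and mt-Nd6, whose 3′ ends overlap by 14 bases, in capitals (chrM:13536-13565 on the plus strand and chrM:13552-13581 on the minus strand). The 12 heavy-strand messages held 5.9% to 16.1% G and 22.1% to 30.0% C. The mt-Nd6 message had the opposite bias, with 28.1% G and 6.0% C.
mt-Nd5: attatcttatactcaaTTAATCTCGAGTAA
mt-Nd6: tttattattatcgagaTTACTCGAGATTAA

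The valine transfer RNA mt-Tv (chrM:1025-1093) lies between the 2 ribosomal RNA genes, and the leucine transfer RNA mt-Tl1 (chrM:2676-2750) lies between mt-Rnr2 and mt-Nd1. They are shown whole, with no capitals, because neighbours on either side of them differed in direction or size, as described further on.
mt-Tv: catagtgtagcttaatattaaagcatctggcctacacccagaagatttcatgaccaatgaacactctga
mt-Tl1: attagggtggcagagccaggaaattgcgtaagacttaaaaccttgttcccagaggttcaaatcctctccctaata

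Of the 37 genes, 15 had any count and 14 had enough counts to be tested. None of the 22 transfer RNA genes, which are 59 to 75 bases long, had a count in any library. RSEM, which estimated the counts, gives each gene an effective length, the number of places where a fragment could start, averaged over the fragment lengths of the library. The mean fragment was 255 to 269 bases in the C2S libraries and 257 to 272 bases in the PM_control libraries, and the effective length of every transfer RNA gene was 0. Their counts of 0 therefore do not show that these RNAs were absent or equal between the groups. Of the mitochondrial messages, mt-Atp8 (chrM:7766-7969, complex V), at 204 bases, had 3, 0 and 0 counts with C2S and 0, 0 and 2 counts in PM_control. Its effective length was 2.19 to 3.52 bases and it was not tested. It shares 43 bases with mt-Atp6, whose gene begins inside it.

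The libraries held 8594473 to 10665867 estimated counts, and a floor of 3 counts corresponded to 0.281 to 0.349 CPM, the counts scaled to a common library total, which covers counting error only. All 8 macrophage markers were present, from 5.47 CPM (Fcgr3) to 3813 CPM (Csf1r) with C2S and from 4.86 to 3007 CPM for the same genes in PM_control. Of 9 markers of fibroblasts, epithelium, T cells and B cells, 5 were at 0 in every library (Col1a2, Pdgfra, Epcam, Krt8 and Cd3e), and the highest, the B-cell gene Cd79a, averaged 1.46 ± 0.63 CPM with C2S and 0.132 ± 0.156 CPM in PM_control (SD, n = 3 each). Among the 11561 genes tested with edgeR's quasi-likelihood test and Benjamini-Hochberg adjustment at 0.05, 55.4% were called. Those called lower with C2S were 28.4% and those called higher 27%, and the median log2 fold change (C2S over PM_control) was close to 0.

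Mitochondrial messages were lower with C2S. Of the 12 protein-coding genes tested, 11 fell, 0 rose and mt-Co1 was not called, with a median log2 fold change of -1.05, beside 28.4% of all tested genes called lower. In 10 of the 12 all 3 C2S values lay below all 3 PM_control values, as was so for 31.4% of all tested genes. With DESeq2, 9 messages fell, beside 25.5% of all genes tested, and with limma on log2(TPM + 1) 9 fell, beside 26% of all genes tested. With the trend over GC content removed, as described further on, 7 fell and 1 rose, beside 28.2% and 25.2% of all tested genes, and mt-Co2, mt-Atp6 and mt-Co3 turned sign without a call. The size of the fall differed between complexes. The 7 messages of complex I, which takes electrons from NADH, had a median of -1.10, and the 5 messages of the other complexes one of -0.48. Each message of complex I had a larger fall than each of the other 5. Most complex I messages also had lower PM_control levels per length and lower GC content than most of the others. Complex, level and GC content can therefore not be told apart here. In these bulk libraries, fewer mitochondrial transcripts per cell cannot be told apart from a change in the RNA that the scaling is relative to.

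**Figure D1:**
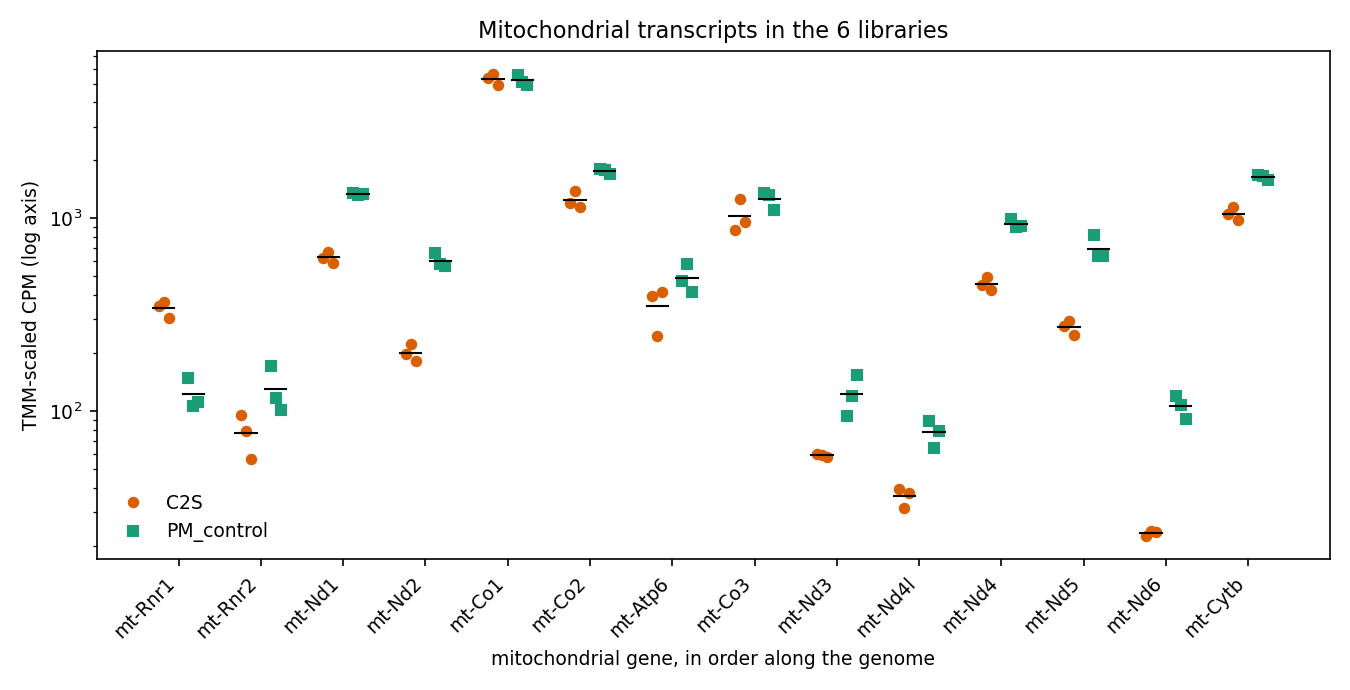
Level of each tested mitochondrial transcript in the 6 libraries, as CPM after TMM scaling on a log axis, with genes in their order along the genome; circles are C2S libraries, squares are PM_control libraries and lines are group means. The groups overlap for mt-Co1 and mt-Co3, and mt-Rnr1 is the gene with all C2S values above all PM_control values.

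In complex I, mt-Nd6 showed the largest change. It codes for a membrane subunit and is the single message of the light-strand transcript (chrM:13552-14070). It had 22.4, 23.8 and 23.6 CPM with C2S and 120, 107.7 and 91.3 CPM in PM_control. The C2S libraries lay close together and far below every PM_control library, at 0.219 times the PM_control mean (log2 fold change -2.19 ± 0.10 SE, adjusted p = 1.78e-11, edgeR). The deposited files do not say whether counting used strand, so RNA of the opposite strand over mt-Nd6, or over any other member, cannot be told apart from the message. As a share of all mitochondrial protein-coding counts, mt-Nd6 took 0.212%, 0.208% and 0.236% with C2S (0.219% ± 0.015) and 0.799%, 0.759% and 0.675% in PM_control (0.744% ± 0.064; SD, n = 3 each). The difference was -0.526 percentage points and the groups did not overlap (exact two-sided permutation p = 0.1, the smallest that 3 libraries against 3 allow).

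The next largest fall was that of mt-Nd2 (chrM:3914-4951), which codes for a subunit of the proton-pumping membrane arm. Its levels were 197, 222 and 182 CPM with C2S and 662, 583 and 563 CPM in PM_control, a log2 fold change of -1.59 ± 0.08 (adjusted p = 3.44e-11, edgeR). The lowest PM_control value was far above the highest C2S value. The other antiporter-like subunits of that arm are coded by mt-Nd4 and mt-Nd5, which lie downstream. Counts of mt-Nd5 (chrM:11742-13565) scaled to 278, 294 and 247 CPM with C2S, against 816, 638 and 639 CPM in PM_control (-1.35 ± 0.09, adjusted p = 1.69e-09, edgeR). For mt-Nd4 (chrM:10167-11544), the values were 451, 493 and 424 CPM with C2S and 992, 904 and 918 CPM in PM_control (-1.04 ± 0.07, adjusted p = 1.25e-09, edgeR). Groups were apart for both genes, and the fall of mt-Nd5 was the larger.

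The first protein-coding gene of the heavy-strand transcript is mt-Nd1 (chrM:2751-3707), whose product sits where the membrane arm meets the matrix arm. With C2S it was at 621, 672 and 589 CPM and in PM_control at 1361, 1318 and 1335 CPM, a log2 fold change of -1.09 ± 0.06 (adjusted p = 3.05e-10, edgeR). The groups were far apart, and the PM_control libraries differed less than the C2S libraries among themselves. The short messages mt-Nd3 (chrM:9459-9806) and mt-Nd4l (chrM:9877-10173) lie side by side further on, and both had far fewer counts. mt-Nd3 was at 59.9, 58.8 and 57.6 CPM with C2S and at 94.6, 119 and 154 CPM in PM_control (-1.06 ± 0.12, adjusted p = 1.91e-06, edgeR). mt-Nd4l was at 39.2, 31.4 and 37.4 CPM with C2S and at 89.0, 64.4 and 78.6 CPM in PM_control (-1.10 ± 0.11, adjusted p = 3.92e-07, edgeR). For mt-Nd3 the spread lay on the PM_control side, and reads shared with a nuclear copy are part of it, as given with the copies. The gene mt-Nd4l overlaps mt-Nd4 by 7 bases on the same strand, and both are carried on 1 messenger RNA in mammals.

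Complex IV, which passes electrons to oxygen, has 3 mitochondrial subunits, which form its catalytic core. mt-Co1 (chrM:5328-6872), the subunit with the oxygen-binding site, was the message with most counts and was not called. It had 5361, 5630 and 4928 CPM with C2S and 5581, 5124 and 4951 CPM in PM_control, and the groups overlapped throughout (0.02 ± 0.07, adjusted p = 0.792, edgeR). This p does not show that mt-Co1 was equal in the groups. mt-Co2 (chrM:7013-7696), the subunit that accepts electrons from cytochrome c, fell, with 1203, 1384 and 1150 CPM with C2S and 1799, 1776 and 1693 CPM in PM_control (-0.50 ± 0.07, adjusted p = 1.65e-05, edgeR). The groups of mt-Co2 did not overlap, but with the trend over GC content removed it turned sign and was not called (0.0776, adjusted p = 0.395, edgeR). mt-Co3 (chrM:8607-9390) had 866, 1267 and 956 CPM with C2S and 1348, 1317 and 1110 CPM in PM_control. It passed the test narrowly, with overlapping groups (-0.29 ± 0.11, adjusted p = 0.0313, edgeR). The call was lost with DESeq2 (adjusted p = 0.235) and with limma on log2(TPM + 1). It was also lost without C2S 1 (-0.17), C2S 3 (-0.24), PM_control 1 (-0.24) or PM_control 2 (-0.26), at adjusted p-values of 0.087 to 0.16 (edgeR). Without C2S 2 it was at -0.47, and with the GC trend removed at 0.24 (adjusted p = 0.0841, edgeR).

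Complex III has a single mitochondrial subunit, cytochrome b, coded by mt-Cytb (chrM:14145-15288), the last gene of the heavy-strand messages. It was at 1055, 1140 and 978 CPM with C2S and at 1683, 1654 and 1585 CPM in PM_control, with groups apart (-0.63 ± 0.07, adjusted p = 4.74e-07, edgeR), and with the GC trend removed it lost its call (-0.12, adjusted p = 0.14, edgeR). Of complex V, the ATP synthase, mt-Atp6 (chrM:7927-8607) codes for the subunit that forms the proton channel with the ring. Its counts scaled to 396, 244 and 413 CPM with C2S and 474, 576 and 414 CPM in PM_control (-0.48 ± 0.14, adjusted p = 0.00997, edgeR). The highest C2S value and the lowest PM_control value of mt-Atp6 nearly met. It was not called with DESeq2 (adjusted p = 0.117), with limma on log2(TPM + 1) or without PM_control 2 (-0.34, adjusted p = 0.0594, edgeR). Without C2S 2 it was at -0.27 (adjusted p = 0.0187, edgeR), and with the GC trend removed at 0.13 (adjusted p = 0.502, edgeR).

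**Figure D2:**
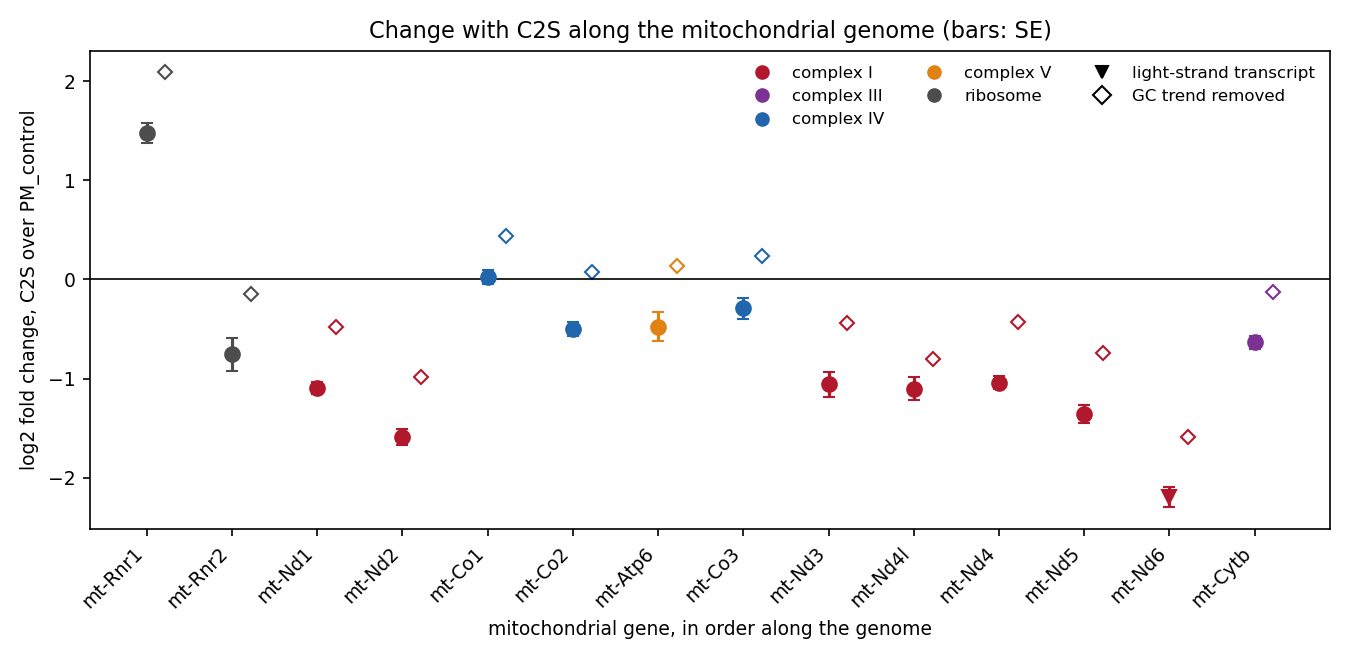
Log2 fold change (C2S over PM_control) of the 14 tested mitochondrial genes in their order along the genome, with SE as bars; filled symbols are the values as fitted, open diamonds those after removing the trend over GC content, colours mark the complex and the triangle marks the light-strand message mt-Nd6. The 7 complex I genes lie between -1.04 and -2.19, below the other messages, on both sides of the genes for complexes IV and V.

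The order along the heavy strand did not sort the changes. Across the 11 heavy-strand messages tested, the log2 fold change had a Pearson r of 0.01 and a Spearman rho of -0.09 with the start position. The genes of complex I lie both before mt-Co1 and after mt-Co3. Next to each other among the tested messages, mt-Nd2 (complex I) was at -1.59 and mt-Co1 (complex IV) at 0.02, and mt-Co3 (complex IV) at -0.29 and mt-Nd3 (complex I) at -1.06. The neighbours mt-Co2 (complex IV) and mt-Atp6 (complex V) were close, at -0.50 and -0.48. Over the 12 messages the log2 fold change correlated with the level in PM_control, as log2 of the mean deposited TPM (a unit scaled for transcript length), at r = 0.83 and rho = 0.75. In PM_control mt-Atp6 averaged 1778 TPM and its nuclear copy Gm10925 3547 TPM, so the level of mt-Atp6 depends on how shared reads were divided. Correlations over genes are descriptions: genes share the 6 libraries and are not replicates, and the PM_control level enters both quantities of the last one.

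Levels between genes are given per length, in TPM, and leave out reads that RSEM gave to nuclear copies, as described further on. With C2S, mt-Co1 averaged 5847, mt-Co2 4156, mt-Co3 2780 and mt-Cytb 1694 TPM, and in PM_control these genes averaged 6189, 6342, 3674 and 2831 TPM. The messages mt-Co1 and mt-Co2 were thus about level per length in PM_control and mt-Co1 led with C2S. At the low end, mt-Nd6 averaged 127 TPM with C2S and 632 TPM in PM_control. It had the lowest level of the tested messages in both groups, with mt-Nd5 next to it in PM_control at 680 TPM and at 247 TPM with C2S. In PM_control the values of these neighbours overlapped, mt-Nd6 at 706, 653 and 536 TPM and mt-Nd5 at 805, 617 and 617 TPM.

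The make-up of the mitochondrial message pool differed between the groups. Complex I messages made up 15.8%, 15.7% and 15.6% of the protein-coding mitochondrial counts with C2S (15.7% ± 0.104) and 27.5%, 26.3% and 27.9% in PM_control (27.3% ± 0.83; SD, n = 3 each). The C2S libraries nearly coincided and lay below every PM_control library (exact two-sided permutation p = 0.1, the smallest possible). By deposited TPM, leaving out mt-Atp8, the share was 24.5%, 21.3% and 22.9% with C2S and 34.7%, 34.7% and 37.9% in PM_control. mt-Co1 took up the largest part of the counts, with 50.8%, 49.1% and 49.4% with C2S and 37.2%, 36.1% and 36.6% in PM_control. The mitochondrial genome as a whole took 1.07% ± 0.08 of all counts with C2S and 1.49% ± 0.07 in PM_control (SD, n = 3 each; exact permutation p = 0.1).

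**Figure D3:**
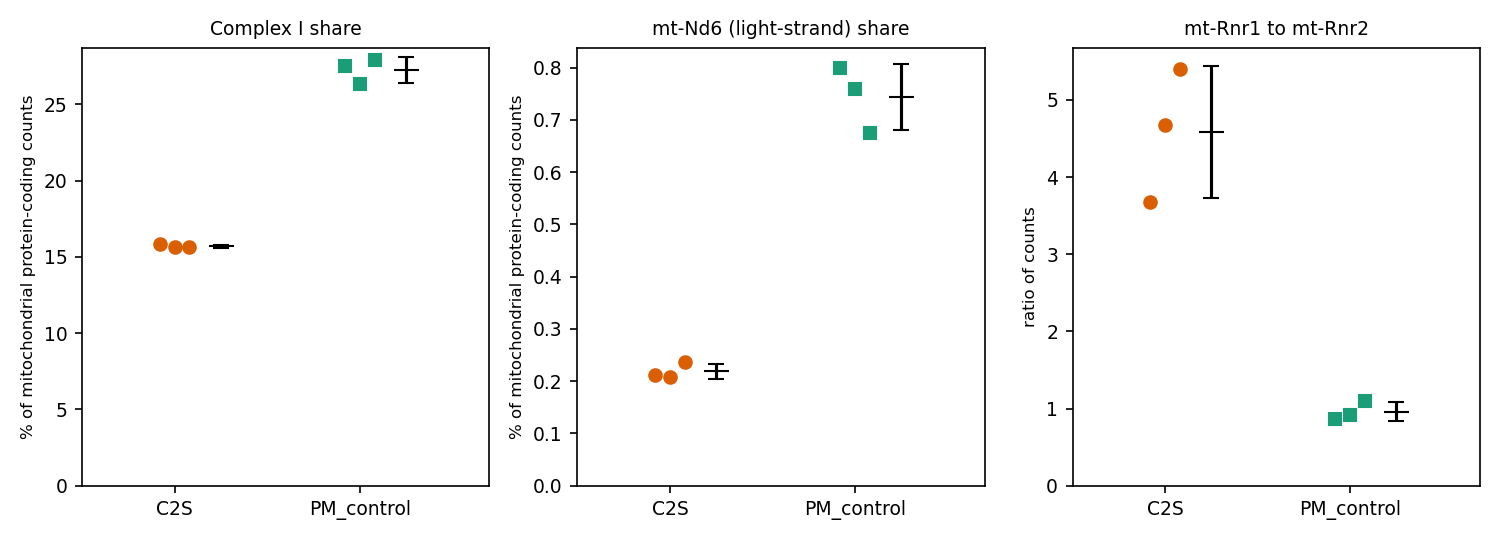
Share of complex I messages and of mt-Nd6 in the mitochondrial protein-coding counts (%), and ratio of mt-Rnr1 to mt-Rnr2 counts, for each library; circles are C2S, squares are PM_control, and the bars give mean and SD (n = 3 each). In each panel the 3 C2S libraries lie apart from the 3 PM_control libraries: lower for both shares and higher for the ratio.

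To test members against the pool itself, the same edgeR fit was run with the summed mitochondrial protein-coding counts as library size. Relative to that sum, 8 of 12 messages were lower and mt-Co1 was higher. Under this scaling, 10.2% of all tested genes were called lower and 56.1% higher. All 7 messages of complex I were among the lower ones, from -0.62 ± 0.08 for mt-Nd4 (adjusted p = 9.93e-07) to -1.77 ± 0.11 for mt-Nd6 (adjusted p = 6.39e-12). mt-Cytb was lower by less (-0.22, adjusted p = 0.0282; not called without C2S 1, PM_control 2 or PM_control 3, at -0.22, -0.21 and -0.21), and mt-Co1 was higher (0.44 ± 0.09, adjusted p = 1.54e-04). The values of mt-Co2 (-0.08, adjusted p = 0.415), mt-Atp6 (-0.04, adjusted p = 0.839) and mt-Co3 (0.12, adjusted p = 0.288) were not called. As mt-Co1 alone makes up a large part of the sum, other centres were tried. With mt-Co1 left out of the sum, 6 were lower and 3 higher, beside 5.11% and 75.7% of all tested genes. With the geometric mean of the tested messages as centre, mt-Nd1, mt-Nd2, mt-Nd5 and mt-Nd6 were lower and all 5 messages outside complex I were higher, beside 3.62% and 83.3%. For mt-Nd3, mt-Nd4l and mt-Nd4 the direction stayed the same with that centre and the call was lost.

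The ribosomal RNAs are made early in the heavy-strand transcript, and in mammals a site bound by a termination factor lies just past them, in the mt-Tl1 gene. They changed in opposite directions, and both were called, beside 55.4% of all tested genes. mt-Rnr1 (chrM:70-1024), the RNA of the small subunit, had 352, 368 and 303 CPM with C2S and 149, 107 and 112 CPM in PM_control, a log2 fold change of 1.48 ± 0.10 (adjusted p = 2.87e-09, edgeR). mt-Rnr2 (chrM:1094-2675), the RNA of the large subunit, had 95.5, 78.6 and 56.2 CPM with C2S and 171, 116 and 102 CPM in PM_control (-0.76 ± 0.17, adjusted p = 0.00114, edgeR), a call lost with the GC trend removed. Neither gene overlapped between groups, and mt-Rnr1 was the single member that rose. The ratio of mt-Rnr1 to mt-Rnr2 counts was 3.68, 4.68 and 5.40 with C2S and 0.868, 0.915 and 1.10 in PM_control. On the log2 scale it averaged 2.18 ± 0.28 with C2S and -0.07 ± 0.18 in PM_control (SD, n = 3 each), a difference of 2.25 (exact two-sided permutation p = 0.1).

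Per length, both ribosomal RNAs were below most of the messages, at 694 TPM (mt-Rnr1) and 82.2 TPM (mt-Rnr2) with C2S and 269 and 150 TPM in PM_control. The labels name an Illumina TruSeq RNA kit but do not say whether ribosomal RNA was removed or RNA with poly(A) tails was selected. How much of either RNA the library step let through, and whether that part differed between the groups, was not tested.

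Base composition sets the mitochondrial transcripts apart from nuclear genes, and among nuclear genes the change differed with GC content. Among 10570 nuclear protein-coding genes, the 1057 with the lowest GC content (34.8% to 42.3%) showed a median change of -0.30 on the log2 scale, and the 1057 with the highest (57.8% to 74.7%) one of 0.14. The 12 tested messages had 33.05% to 41.1% GC, and 7 of them lay below 38.35%, the first percentile of the nuclear genes. Over the 12 messages, log2 fold change and GC content had r = 0.565 and rho = 0.45. Over the 11 heavy-strand messages r was 0.43 and rho 0.33, and within the 7 of complex I r was 0.35 and rho -0.07. The highest GC content belonged to mt-Nd4l, at -1.10, and mt-Co1, at 0.02, was second at 39.9%. The ribosomal RNAs, at 35.8% (mt-Rnr1) and 35.4% (mt-Rnr2), nearly had the same GC content and opposite changes.

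Removing the nuclear trend over GC content from each library shifted the messages by 0.30 (mt-Nd4l) to 0.62 on the log2 scale. All 7 messages of complex I stayed lower and were called, from -0.43 (mt-Nd4, adjusted p = 5.04e-05, edgeR) and -0.44 (mt-Nd3, adjusted p = 0.00393) to -1.59 (mt-Nd6, adjusted p = 3.98e-09). Of the 5 others, 0 were called lower and mt-Co1 was called higher (0.44, adjusted p = 1.07e-04, edgeR), beside 28.2% of all tested genes called lower and 25.2% called higher. Of the ribosomal RNAs, mt-Rnr1 was at 2.09 (adjusted p = 8.22e-11) and mt-Rnr2 lost its call (-0.15, adjusted p = 0.514). The medians of complex I and the other messages were then -0.74 and 0.13, beside -1.10 and -0.48 before. Below the first percentile the trend was held flat at its edge, so for the 7 messages there the shift was carried over from nuclear genes of higher GC content. These 7 were mt-Atp6 and all complex I messages but mt-Nd4l. Whether GC content accounts for the difference between complex I and the other messages was therefore not tested.

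**Figure D4:**
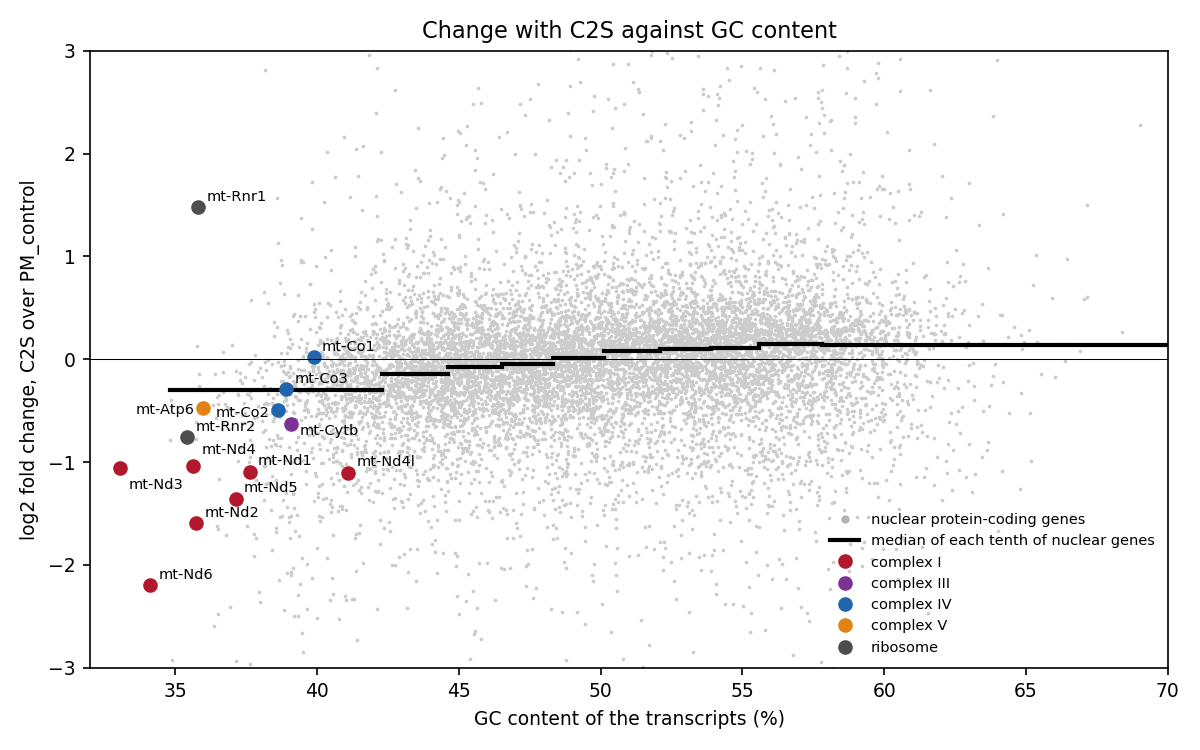
Log2 fold change (C2S over PM_control) against GC content (%) of 10570 nuclear protein-coding genes (grey points), with the median of each of 10 bins of 1057 genes (black lines) and the 14 tested mitochondrial genes in colour by complex; nuclear genes outside the axis limits are not drawn. The mitochondrial genes lie at the left edge, where the lowest bin of nuclear genes (34.8% to 42.3% GC) has a median of -0.30. Most complex I genes lie far below that line. With the fitted trend over GC content removed, mt-Nd4, mt-Nd3 and mt-Nd1 were at -0.43, -0.44 and -0.48.

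Reads shared with the nuclear copies touched some members. Of 11 nuclear genes that matched a member over at least 100 bases at 95% identity or more, 8 had counts. RSEM divides reads that fit several genes, and where the sequences are identical, nothing in the reads can place them. Of the counts of mt-Atp6 and its copy Gm10925 together, Gm10925 received 61.7%, 80.7% and 60.4% with C2S and 66.8%, 61.1% and 71.6% in PM_control, 49890 counts over the 6 libraries. These shares overlapped between the groups. Gm28437 took 23.6%, 9.09% and 13.8% of the mt-Co3 pair with C2S and 11.8%, 15.1% and 26.5% in PM_control. Gm28661 took 4.96%, 5.47% and 3.41% of the mt-Co2 pair with C2S and 4.62%, 7.50% and 6.52% in PM_control. For Gm28438, with the 1 differing base, the share of the mt-Nd3 pair was 17.9%, 37.0% and 34.0% with C2S and 46.0%, 26.1% and 5.12% in PM_control. mt-Nd3 and its copy are therefore uncertain one by one, like mt-Atp6 and mt-Co3.

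Adding the copies to their members lowered the SE of the change for mt-Atp6, mt-Co3 and mt-Nd3. Pooled mt-Atp6 held 1033, 1270 and 1041 CPM with C2S and 1431, 1482 and 1457 CPM in PM_control, and the groups, which nearly met before pooling, were clearly apart (log2 fold change -0.39 ± 0.07, adjusted p = 2.85e-04, edgeR). Pooled mt-Co3 had 1133, 1393 and 1110 CPM with C2S and 1529, 1551 and 1511 CPM in PM_control. Its groups, which overlapped before pooling, no longer did (-0.34 ± 0.08, adjusted p = 0.00126, edgeR). Pooled mt-Nd3 was at 73.0, 93.3 and 87.3 CPM with C2S and at 175, 161 and 162 CPM in PM_control (-0.98 ± 0.08, adjusted p = 1.53e-08, edgeR). mt-Co1 remained without a call (0.02, adjusted p = 0.845, edgeR). With the copies, the mitochondrial share of counts was 1.17%, 1.29% and 1.09% with C2S and 1.71%, 1.63% and 1.60% in PM_control. No counted copy matched mt-Rnr1, mt-Rnr2, mt-Nd1, mt-Nd2, mt-Nd5, mt-Nd6 or mt-Cytb, so their counts did not depend on this choice.

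**Figure D5:**
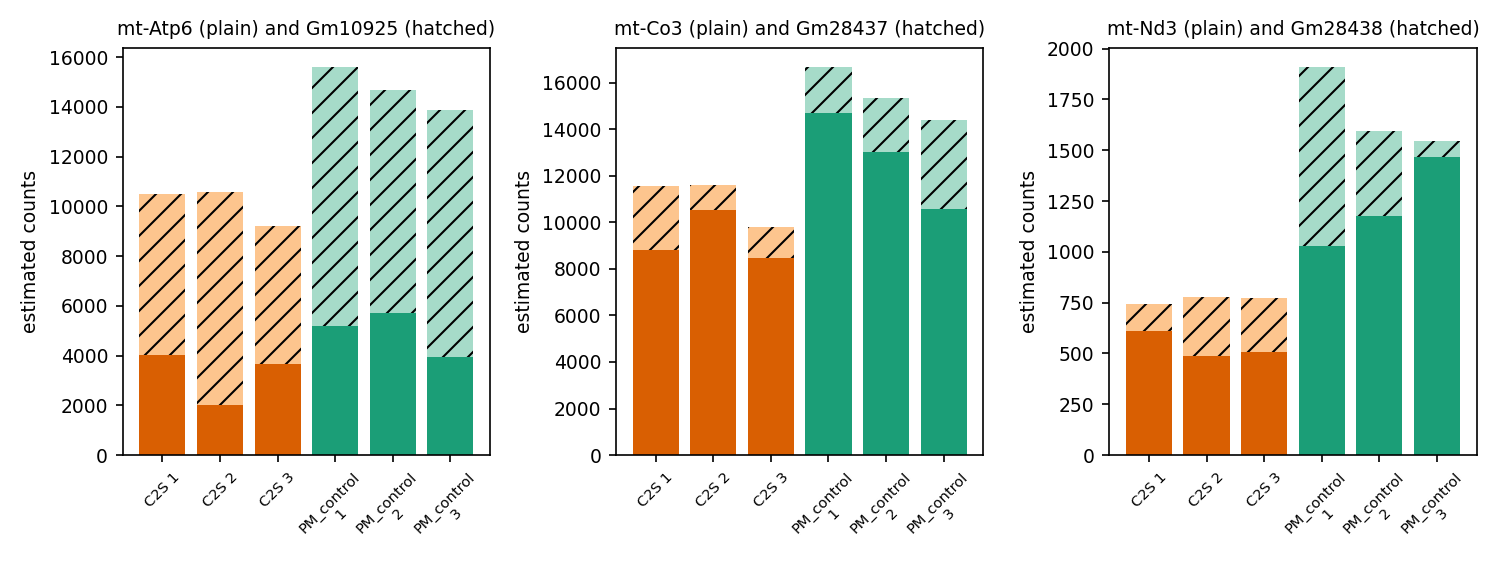
Estimated counts of mt-Atp6, mt-Co3 and mt-Nd3 (plain bars) in the 6 libraries with those of their near-identical nuclear copies Gm10925, Gm28437 and Gm28438 stacked on top (hatched), C2S libraries left of PM_control libraries. The split between member and copy varies from library to library, while the summed bars of the C2S libraries are all lower than those of the PM_control libraries.

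Nuclear genes that copy, transcribe, cut, stabilise and degrade mitochondrial RNA were measured in the same libraries. Of 44 such genes, 41 were tested, 18 fell, 1 rose and 22 were not called, beside 28.4% of all tested genes called lower and 27% called higher. The median log2 fold change of the 41 was -0.24. These counts include the transcription gene Mterf1b, named after its values were seen, with 3, 0 and 5 counts with C2S and 12, 13 and 10 counts in PM_control. Mterf1b passed the filter on low counts through its PM_control values alone, so its call is no support for a fall. The counts also include Mterf1a, likewise named after its values were seen. It had 19, 16 and 5 counts with C2S and 51, 29 and 33 counts in PM_control. The C2S values of Mterf1a alone would not have passed the filter, so its call is no support either. In the group for transcription, 6 of 8 tested genes fell (median -0.72), Mterf1a and Mterf1b among them. In that for copying the mitochondrial DNA, 3 of 9 did. Of 10 genes for stability and tails of the messages 4 fell, of 5 for cutting 2, of 3 for decay 1, and of 6 regulators of mitochondrial biogenesis 2 fell and 1 rose. All these groups are small, and 28.4% of all tested genes were called lower.

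Polrmt, the mitochondrial RNA polymerase, was at 41.7, 39.4 and 42.8 CPM with C2S and at 69.9, 66.6 and 65.1 CPM in PM_control (log2 fold change -0.70 ± 0.08, adjusted p = 1.25e-06, edgeR). Tefm, its elongation factor, was at 2.95, 3.01 and 3.62 CPM with C2S and at 10.00, 8.80 and 9.45 CPM in PM_control (-1.56 ± 0.20, adjusted p = 5.97e-06, edgeR). In both genes the groups were far apart. Tfam, which packs the mitochondrial DNA and helps to start transcription, was at 28.6, 32.8 and 34.7 CPM with C2S and at 37.0, 40.8 and 40.3 CPM in PM_control. It passed the test at a small size (-0.30 ± 0.10, adjusted p = 0.0145, edgeR) but not without C2S 1 (-0.21, adjusted p = 0.0904) or PM_control 2 (-0.28, adjusted p = 0.0536). The initiation factor Tfb2m averaged 19.8 ± 1.3 CPM with C2S and 24.1 ± 2.9 CPM in PM_control (SD, n = 3 each) and was not called (-0.28, adjusted p = 0.0589, edgeR), though it was without PM_control 2 (-0.35, adjusted p = 0.0403).

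The smallest adjusted p among these nuclear genes was that of Fastkd5, a protein known from human cells to process mitochondrial messages whose ends are not marked by a transfer RNA. It had 6.29, 9.14 and 9.29 CPM with C2S and 30.7, 29.5 and 29.7 CPM in PM_control (-1.87 ± 0.14, adjusted p = 1.09e-08, edgeR). Fastkd1, of the same family, averaged 17.2 ± 1.8 CPM with C2S and 39.1 ± 5.1 CPM in PM_control (SD, n = 3 each; -1.18 ± 0.12, adjusted p = 3.04e-07, edgeR). Values of both genes were apart between the groups. The binding partners that keep mitochondrial messages stable, Lrpprc (0.04, adjusted p = 0.682) and Slirp (-0.05, adjusted p = 0.655), were not called, with averages of 176 ± 18 and 36.2 ± 1.6 CPM with C2S and 171 ± 6 and 37.5 ± 1.5 CPM in PM_control. Gabpb1, a subunit of a factor that binds promoters of nuclear respiratory genes, was the single gene of the list that rose, at 38.4 ± 1.1 CPM with C2S and 27.8 ± 1.1 CPM in PM_control (0.46 ± 0.09, adjusted p = 3.39e-04, edgeR). The coactivator Ppargc1a had 0 counts in all 6 libraries.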

How the data were processed

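The series design text names fastp for trimming, STAR for alignment to mm10, RSEM for counting and edgeR for the authors' own comparison. STAR, RSEM and mm10 also stand in the submitters' processing notes. Their versions, the gene models and the strand setting are not given in the sources used. The authors deposited expected counts, RSEM's estimated counts that share out reads fitting several genes, and TPM, scaled for length and depth, per the file headers. The deposited gene and effective lengths were read from the same tables.

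Expected counts were rounded. A filterByExpr filter with a minimum count of 10 and a minimum total of 15 kept 11561 genes holding 99.85% of counts. Groups were compared by the quasi-likelihood F test of edgeR 4.0.16 (with limma 3.58.1 in R 4.3.3) after TMM scaling, in a model with group alone. P-values were adjusted by Benjamini-Hochberg over all 11561 genes, with 0.05 as threshold. An SE is the log2 fold change divided by the square root of F. Single values per library were compared by exact permutation tests. The common biological coefficient of variation was 7.52%, and precision is limited by 3 libraries a group. Duplicate libraries within a group were looked for (chi-square over degrees of freedom 4.3 to 6.46) and none were found. On simulated data for this comparison (11406 genes), 80% of 50 genes changed 1.5-fold and 93.9% of 49 changed 2-fold were recovered. The simulation changed few genes and gave all genes a common dispersion. In these data 55.4% of genes were called, so recovery may differ here.

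Nuclear copies were found with blastn 2.17.0 among GENCODE M21 transcripts. The GC trend was a loess curve (span 0.3) per library over nuclear protein-coding genes, held flat outside the first and last percentile.

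The members and lists were chosen with earlier results of these data known. Named were all protein-coding and ribosomal members, up to 3 nuclear list genes per direction by adjusted p plus 7 set ones (Polrmt, Tfam, Tfb2m, Tefm, Lrpprc, Slirp and Ppargc1a), and the 3 copies with most counts; other copies were named after their values were seen. Alternatives were RLE, upper quartile and no scaling, DESeq2 1.42.0, limma-voom, limma on log2(TPM + 1), other filters, counts left unrounded, a replicate block, GC trend removal, other centres of the mitochondrial pool and leaving out each library. Adding the nuclear copies was chosen after seeing the data. One listed marker gene is not reported here.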

Additional observations from a re-analysis of the deposited data

How the results depend on the processing

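All 7 complex I messages were called lower in each of the 19 alternatives to the main fit, beside 17.8% to 34.6% of all tested genes. In each of them mt-Rnr1 was called higher, beside 14.5% to 28.1%. The other centres of the pool are not among the 19. With the geometric mean as centre 4 of the 7 complex I messages were called lower, beside 3.62% of all tested genes. With mt-Co1 left out of the pool 6 were, beside 5.11%. With the GC trend removed, 8 messages were called (7 lower, 1 higher) and 1 ribosomal RNA, beside 53.4% of all tested genes. With that and the replicate block, 10 messages (8 lower, 2 higher) and 1 ribosomal RNA were called, beside 54.3%. Signs turned for mt-Co2, mt-Atp6 and mt-Co3 with the GC trend removed (0.0776, 0.13 and 0.24) and with the replicate block added (0.076, 0.12 and 0.23; adjusted p = 0.0193 for mt-Co3, edgeR). Relative to the geometric mean of the messages, mt-Co2, mt-Atp6 and mt-Cytb were at 0.44, 0.47 and 0.31, and with mt-Co1 left out of the pool mt-Co2 and mt-Cytb were at 0.25 and 0.12. By deposited TPM the difference (C2S minus PM_control) was -1.17 percentage points in the mitochondrial share and -1.32 in the mt-Nd6 share. The cause of these shifts was not tested. With limma on log2(TPM + 1) the median of all genes shifted by -0.10.

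Leaving out 1 library, 9 to 11 messages, 2 ribosomal RNAs and 15 to 19 nuclear list genes were called, beside 49.6% to 53.7% of all tested genes. Relative to the pool, 8 to 9 messages were called, beside 59.1% to 68.4%. The differences were then -0.458 to -0.381 in the mitochondrial share, -0.561 to -0.498 in the mt-Nd6 share and 2.12 to 2.39 in the log2 ratio of ribosomal RNAs. Over all alternatives the adjusted p ran from 1.97e-06 to 0.235 for mt-Co3 and from 6.05e-14 to 0.556 for mt-Atp6. With library sizes alone, 25 nuclear list genes were called, 24 of them lower. Of all tested genes, 56% were then called and 34.6% called lower, and the median of all genes shifted by -0.09. Tfam lost its call in 4 alternatives (adjusted p 0.00267 to 0.124), and Tfb2m was called in 3 (0.0171 to 0.407).

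With the replicate number as a block, 11 messages, 2 ribosomal RNAs and 21 of 41 nuclear list genes were called, beside 56.1% of all tested genes. Deviations of same-numbered libraries correlated at -0.01, 0.07 and 0.03, and 3 of 6 libraries correlated best with their own number. The block lowered the SE of mt-Rnr2 from 0.169 to 0.0733 and that of mt-Rnr1 from 0.102 to 0.0803. These values do not settle whether same-numbered libraries were paired. At these fragment lengths, mt-Atp8 and the transfer RNAs could not be measured.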
